A study of Mus musculus with 4 samples.

Results

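The gp130 ligands are cytokines that signal through receptor complexes sharing the chain gp130, which is encoded by Il6st. Each ligand is recognised by its own receptor chain, gp130 or a related chain is brought into the complex, and the attached JAK kinases phosphorylate STAT proteins, chiefly STAT3. SOCS3 is the classical feedback inhibitor of this pathway, and in CD4 T cells IL-6 is best known for its part in the differentiation of Th17 and follicular helper T cells. The ligands considered here, Il6, Il11, Lif, Osm, Ctf1, Clcf1 and Il27, were chosen by their shared receptor chain and with results of these arrays already known, so their values are given as a description of these arrays. Of the 7 ligands, 6 had a probe that could be named through its transcript, by 7 probes in all, out of 18749 named genes and 41173 probes. The expression of Lif was not analysed here.

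The study asked how the transcription factor Bach2 restrains Th2-type responses, and its arrays covered Th cells that were wild type (WT) or labelled Bach2-deficient (KO). Naive splenic CD4 T cells of the C57BL/6J background, labelled as female, were used, and the KO cells came from mice with a floxed Bach2 gene and a CD4-Cre transgene, in which the Cd4 promoter drives Cre in T cells from the thymus onwards. All 4 cultures received an immobilized anti-TCR-β antibody (3 µg/ml) and an anti-CD28 antibody (1 µg/ml) for 2 days and IL-2 (2.5 ng/ml) for a further 3 days, with no polarizing cytokine named. This IL-2 dose is that of the sample labels, and the methods of the paper give another. WT (+) and KO (+) cells were then re-stimulated for 4 h through anti-TCR-β alone, without added IL-2, and WT (-) and KO (-) cells were not. Each condition was read on 1 array, so no difference has a replicate check and no test between conditions was made.

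Signals are given as the scanner's values with background removed. A difference is a log2 ratio of 2 arrays, each first divided by its 75th percentile of signal. A probe that the scanner software did not mark as well above background is called at background and has only a bound there, which was set at the lowest signal well above background, between 14.5 and 17.2 over the 4 arrays. A gene was counted as higher or lower at a difference of at least 2-fold, which is a rule of size. As a measure of error, different probes of the same gene gave differences with a median SD of 0.09 (KO minus WT before re-stimulation), 0.11 (after it), 0.15 (re-stimulation in WT) and 0.14 (in KO) over 3852 genes. This covers the probes only, and the spread between mice and cultures is unknown.

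The labels were checked first. The probe of the targeted gene, Bach2, gave signals of 2932 on WT (-), 2633 on KO (-), 3310 on WT (+) and 3080 on KO (+), which was no clear check of the genotype. Transcripts of the Y-linked gene Eif2s3y gave 3.29 and 3.18 on the WT arrays, at background, and 1185 and 951 on the KO arrays, although all 4 samples are labelled female. The paper's methods state that mice of both sexes served for in vitro work. Xist was well above background on every array, at 9524 on WT (-), 4623 on KO (-), 5221 on WT (+) and 2585 on KO (+). It differed by -1.04 and -1.19 on the log2 scale (KO minus WT). Sex and genotype label therefore cannot be told apart in any comparison of KO with WT, and the KO arrays are named by their label. All 6 measured T cell markers were well above background on every array, and all 8 listed activation genes, Il2 and Cd69 among them, were at least 2-fold higher after re-stimulation in both genotypes.

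Il6, which encodes the best-known ligand of gp130, showed the widest range of the ligands. Its probe (transcript NM_031168) gave 3.35 on WT (-), not well above background, 23.0 on KO (-), 85.4 on WT (+) and 7938 on KO (+). The probe was spotted repeatedly, and the spots ran from 3.05 to 3.80 on WT (-) (9 spots), 20.2 to 27.3 on KO (-), 77.3 to 99.0 on WT (+) and 7641 to 8407 on KO (+) (10 spots each). No spot range overlapped that of another array.

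After re-stimulation, Il6 was 82.4-fold higher in KO than in WT cells, a log2 difference of 6.36, which ranked 3 among 12348 genes measured in that comparison. Before re-stimulation it was at least 1.53-fold higher in KO cells (0.61 on the log2 scale, a bound). Re-stimulated cells had at least 7.88-fold more Il6 than unstimulated ones in WT (2.98, a bound) and 424-fold more in KO (8.73). The last difference ranked 14 among 12394 genes. Over the processing alternatives the KO minus WT difference after re-stimulation stayed between 5.58 and 6.46. The KO re-stimulation difference was 6.50 with normexp background correction and quantile normalization, and at most 8.98. The normexp setting adds a fixed offset to every signal, so a difference that involves a dim signal becomes smaller by construction. In RNA from whole cultures, fewer cells that express a gene and less RNA per cell cannot be told apart.

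**Figure D1:**
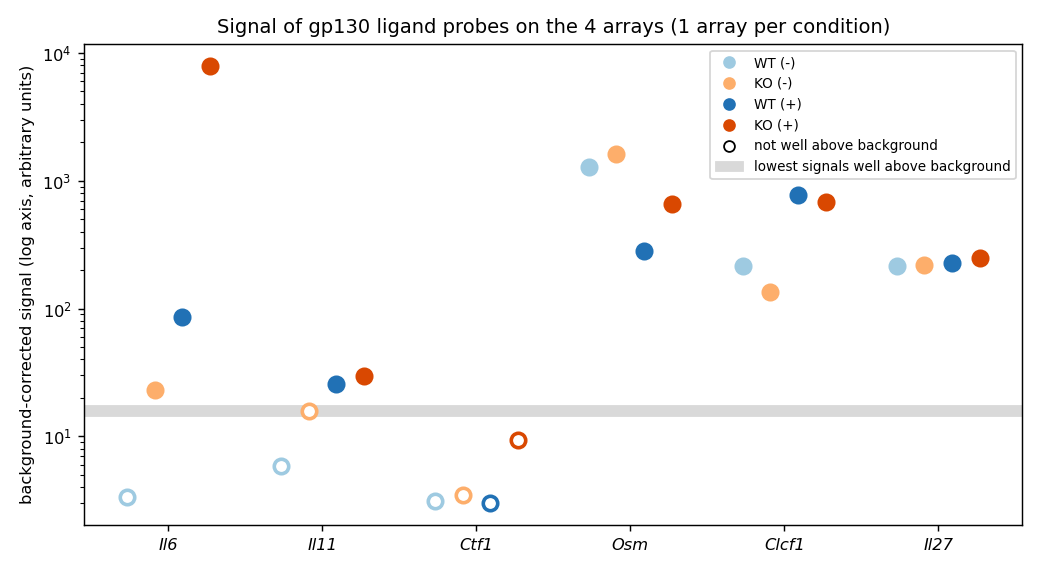
Background-corrected signal (log axis, arbitrary units) of the probe used for each of the 6 gp130 ligands with a probe, 1 point per array, hollow where the probe was not well above background. The 4 Il6 points spread from 3.35 to 7938, whereas the 4 Il27 points lie between 215 and 250, and all 4 Ctf1 points are hollow.

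Some transcripts typical of other cell types were higher on both KO arrays than on both WT arrays. Il6 was higher in KO than in WT cells at each time, but higher on WT (+) than on KO (-). Of 10 mast cell and basophil markers with a probe, 3 were well above background on WT (-), 2 on WT (+) and 7 on each KO array, and their summed signal was 243 on WT (-), 1344 on KO (-), 484 on WT (+) and 1977 on KO (+). The basophil protease Mcpt8 gave 309 and 333 on the KO arrays and 8.48 and 8.73 on the WT arrays, which is at background. Ms4a2, Mcpt4 and Tpsb2 stayed at background on all 4 arrays. Of the 7 measured in both KO arrays, Cd200r3 and Hdc were at least 2-fold higher on KO (+) than on KO (-). Cd200r3 gave 55.2 and 233 and Hdc 230 and 849, differences of 2.38 and 2.18 on the log2 scale. By the same probes both were also at least 2-fold higher after re-stimulation in WT cells. The other probe of Cd200r3 gave 76.4 on KO (-) and 47.4 on KO (+), the opposite direction, and was at background on both WT arrays. The remaining 5 markers differed by less than 2-fold, among them Mcpt8 (0.41).

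Of 9 macrophage and dendritic cell markers, 3 on WT (-), 3 on KO (-), 1 on WT (+) and 2 on KO (+) were well above background, with summed signals of 249, 541, 112 and 285. Adgre1 was 2.23-fold higher in KO cells before and 2.95-fold higher after re-stimulation by its brighter probe. Its other probe was above background on KO (-) alone, at 62.8. Itgax was also at least 2-fold higher in KO cells at both times, by bounds. It gave 65.7 on KO (-) and 55.7 on KO (+), and was at background on WT (-) at 11.3 and on WT (+) at 13.2. Lyz2, Itgam, Fcgr1, Flt3 and Clec9a stayed at background on all 4 arrays. Of 5 B cell markers 2 were well above background on every array, with sums from 156 to 599, and Ms4a1, Cd79a and Pax5 on none. Natural killer cell markers gave 1 or 2 of 4, with sums from 173 to 458, and stromal markers 1 to 3 of 5, with sums from 71.2 to 177. Cd8a was well above background on KO (+) alone, at 63.0. The part of other cells in the Il6, Osm and Ebi3 differences was not tested. Scaled to the T cell gene Cd3e instead, the KO minus WT difference of Il6 after re-stimulation was 6.46. That scaling moved every gene alike, by 0.10 in this comparison, so it has no bearing on the part of other cells.

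**Figure D2:**
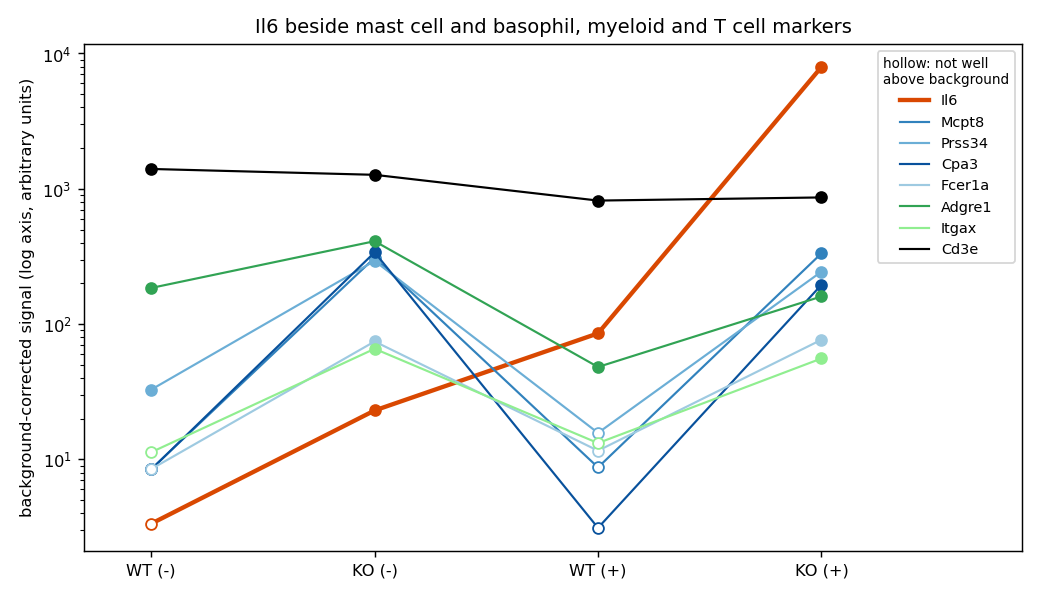
Background-corrected signal (log axis, arbitrary units) of Il6, mast cell and basophil markers (Mcpt8, Prss34, Cpa3, Fcer1a), myeloid markers (Adgre1, Itgax) and the T cell gene Cd3e on each array, hollow where not well above background; lines join points of a gene and show no course over time. Mcpt8 is at 309 and 333 on the KO arrays, whereas Il6 is at 23.0 and 7938.

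Osm was lower and Clcf1 higher on the re-stimulated arrays. Osm, which encodes oncostatin M, a ligand of complexes of gp130 with the oncostatin M receptor or the LIF receptor, gave 1278 on WT (-), 1609 on KO (-), 282 on WT (+) and 663 on KO (+) (NM_001013365). Re-stimulated cells had 3.25-fold less in WT (-1.70) and 1.97-fold less in KO (-0.98), the latter just short of 2-fold. After re-stimulation it was 2.08-fold higher in KO than in WT cells (1.06), just past the rule, against a difference of 0.34 before re-stimulation. Its other probe read 370, 446, 84.7 and 177 in the same order of arrays. By that probe the differences were -1.65 and -1.03 on re-stimulation, and 0.27 and 0.89 between genotypes before and after it. The probes thus gave the same directions but fell on different sides of the 2-fold rule in both comparisons near it. On the log2 scale the re-stimulation difference was higher by 0.72 in KO than in WT, and this difference of responses ranked 442 among the 10810 genes with a probe above background throughout.

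Clcf1 encodes cardiotrophin-like cytokine, which signals through the ciliary neurotrophic factor receptor. Its probe (NM_019952) gave 216 on WT (-), 136 on KO (-), 768 on WT (+) and 684 on KO (+), and both re-stimulated arrays lay above both unstimulated ones. The gene was 4.96-fold higher after re-stimulation in WT cells (2.31) and 6.20-fold higher in KO cells (2.63). KO minus WT differences were -0.66 before and -0.34 after re-stimulation, less than 2-fold in each case.

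The remaining ligands gave a low or level signal. Il11, a cytokine best known for its roles in stroma and blood cell formation, gave 5.89 on WT (-) and 15.7 on KO (-), neither well above background, and 25.7 on WT (+) and 29.5 on KO (+) (NM_008350, 1 spot). The scanner software put the error of these spots at 3.65, 4.26, 4.33 and 5.08. Il11 was at least 2.37-fold higher after re-stimulation in WT cells and at least 2.17-fold higher in KO cells, and the re-stimulated arrays differed by 0.02 on the log2 scale. With background correction by normexp the re-stimulation differences were 0.27 and 0.20, but its offset makes differences between signals this dim smaller by construction. Both main values are bounds, so their size was not settled at this signal. Ctf1, which encodes cardiotrophin-1, gave 3.14, 3.47, 3.01 and 9.33 in the same order, at background on every array (NM_007795).

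Il27 encodes the p28 chain of IL-27, which pairs with the product of Ebi3 and is made mainly by antigen-presenting cells. Its unscaled signal was nearly level, at 215 on WT (-), 220 on KO (-), 226 on WT (+) and 250 on KO (+) (NM_145636). The scaled differences were 0.04 and -0.03 between genotypes, before and after re-stimulation, and 0.56 in WT and 0.49 in KO cells on re-stimulation. The 75th percentile used for scaling was 436 on WT (-), 434 on KO (-), 313 on WT (+) and 353 on KO (+), so the scaled values were higher after re-stimulation although the signals were nearly level.

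Counted over the ligands, none of the 4 compared before re-stimulation was shown to differ 2-fold between genotypes. Il6 had only a lower bound there (0.61), so a larger difference is possible. Of all 12136 genes, 5.26% were at least 2-fold higher and 2.82% at least 2-fold lower in KO cells. After re-stimulation 2 of 5, Il6 and Osm, were higher in KO cells and 0 were lower, against 5.17% and 3.85% of genes. On re-stimulation in WT cells 3 of 5, Il6, Il11 and Clcf1, were higher and 1, Osm, was lower, against 13.2% and 13.5% of genes. In KO cells the same 3 were higher and 0 were lower, against 12.4% and 13.0% of genes. The ligands' median log2 differences were 0.19, 0.02, 1.25 and 1.11 in these 4 comparisons, beside 0.00, 0.02, -0.01 and 0.00 over all genes. The members were selected with these contrasts known, so nothing is read from the counts. Comparisons that share an array, such as both that use KO (+), are not independent of each other.

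**Figure D3:**
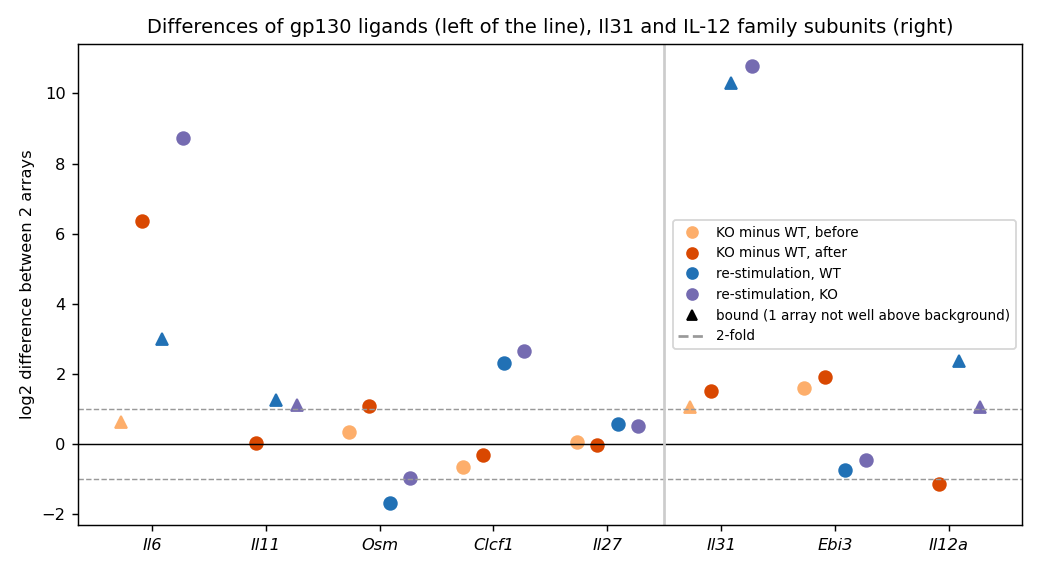
Log2 difference between 2 arrays for the 5 measurable gp130 ligands and for Il31, Ebi3 and Il12a, with triangles for bounds and dashed lines at 2-fold. Il6 stands at 6.36 for KO minus WT after re-stimulation, whereas Il11, Clcf1 and Il27 lie between -0.34 and 0.02 there.

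**Figure D4:**
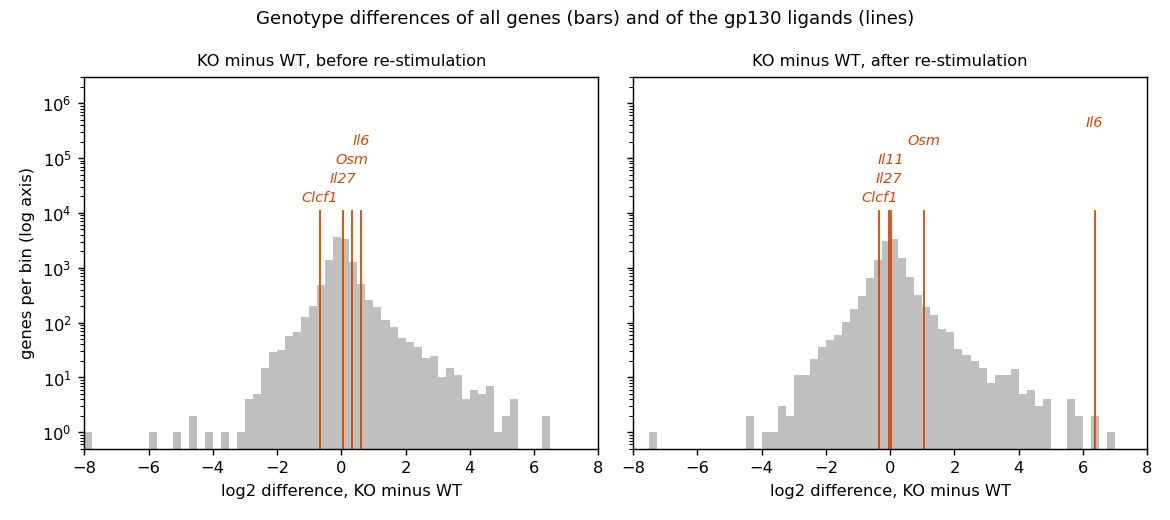
Number of genes per bin (log axis) by log2 difference of KO minus WT, before and after re-stimulation, with values past the axis placed in the end bins and lines at the gp130 ligands. Before re-stimulation Osm, Clcf1 and Il27 lie within 2-fold, and Il6 is drawn at its lower bound of 0.61. After it Il6 lies at 6.36 and Osm at 1.06.

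Windows of sequence upstream of the RefSeq start (GRCm38.p6) were given for Il6, Il11, Lif and Ctf1, and were not used here for Osm, Clcf1 and Il27. The 250 bases before the start were searched on both strands for the AP-1 heptamer TGAGTCA, the cAMP response element TGACGTCA, the STAT motif TTCNNNGAA and the NF-κB consensus. The AP-1 heptamer was included because Bach2 is known to bind DNA elements that overlap theirs. Of 32851 windows of the same length, 4.46% held the AP-1 heptamer, 1.55% the cAMP response element, 7.02% the STAT motif and 3.9% the NF-κB consensus. The windows of Il6 and Lif and 1 of the 2 windows of Il11 held the AP-1 heptamer, and these 3 are shown because they are the ligand windows that hold it. They are written 5′ to 3′ on the strand of the gene, with the AP-1 heptamer and, in Il6, the NF-κB match in capitals:
Il6 (chr5:30012864-30013113, plus strand): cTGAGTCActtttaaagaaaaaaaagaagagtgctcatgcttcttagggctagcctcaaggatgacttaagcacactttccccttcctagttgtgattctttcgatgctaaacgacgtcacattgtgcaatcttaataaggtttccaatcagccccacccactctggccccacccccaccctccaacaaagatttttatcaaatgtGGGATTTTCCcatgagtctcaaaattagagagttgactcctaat
Il11 (chr7:4778142-4778391, minus strand): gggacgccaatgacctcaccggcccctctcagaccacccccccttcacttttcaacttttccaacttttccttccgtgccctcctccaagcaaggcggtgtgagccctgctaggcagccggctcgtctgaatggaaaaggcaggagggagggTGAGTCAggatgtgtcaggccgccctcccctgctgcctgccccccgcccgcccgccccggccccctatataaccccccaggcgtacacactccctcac
Lif (chr11:4257318-4257567, plus strand): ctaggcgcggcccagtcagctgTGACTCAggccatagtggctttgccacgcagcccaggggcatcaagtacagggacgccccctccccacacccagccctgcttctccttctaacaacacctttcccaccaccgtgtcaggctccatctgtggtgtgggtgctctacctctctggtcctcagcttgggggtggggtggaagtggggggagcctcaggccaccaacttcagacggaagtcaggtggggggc

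The heptamer lay 249 to 243 bases before the start in Il6, 98 to 92 in Il11 and 228 to 222 in Lif. In Il6 the NF-κB match lay 44 to 35 bases before the start. The other Il11 window and that of Ctf1 held no match to the 4 motifs. A match describes the letters of the window and was not tested as a binding site.

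Among the partner subunits and other ligands of the family, Ebi3 and Il31 were at least 2-fold higher in KO cells at both times. Ebi3, the chain that pairs with p28 in IL-27 and with the product of Il12a in IL-35, gave 1388 on WT (-), 4200 on KO (-), 585 on WT (+) and 2441 on KO (+). It was 3.04-fold higher in KO cells before re-stimulation (1.60) and 3.70-fold higher after it (1.89), and its re-stimulation differences were -0.77 in WT and -0.48 in KO cells. In the same search its upstream window held an NF-κB match 44 to 35 bases before the start, the window of Cntf an AP-1 heptamer 245 to 239 bases before it, and those of Il31 and Il12a no match.

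Il12a, the p35 chain of IL-12 and IL-35, was at background before re-stimulation and gave 55.6 on WT (+) and 28.1 on KO (+). After re-stimulation it was 2.23-fold lower in KO than in WT cells (-1.16). With normexp the difference was -0.47, but the offset makes differences between signals this dim smaller, so this value does not decide the 2-fold call. Il31, an itch-associated cytokine of the family that signals through its own receptor chain instead of gp130, gave 3.42 on WT (-), not well above background, 30.7 on KO (-), 13803 on WT (+) and 44117 on KO (+). Unstimulated KO cells had at least 2.04-fold more than WT cells (1.03, a bound). The value was 0.28 with normexp, whose offset makes a difference between such dim signals smaller. Il31 was at least 1274-fold higher after re-stimulation in WT (10.31, a bound) and 1770-fold higher in KO cells (10.79), and the re-stimulated KO array was 2.83-fold higher than the re-stimulated WT array. Both Il6 and Il31 were thus high on the re-stimulated KO array, but Il31 was also high in re-stimulated WT cells and Il6 was not. Cntf, which encodes ciliary neurotrophic factor, differed by 0.07 and 0.14 between genotypes.

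On the receptor side, transcripts of the shared chain were present on every array. Il6st gave 676 on WT (-), 474 on KO (-), 754 on WT (+) and 693 on KO (+). The KO minus WT difference was -0.51 before and -0.29 after re-stimulation, and the re-stimulation difference 0.64 in WT and 0.85 in KO cells, less than 2-fold throughout.

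Il6ra, the IL-6-binding chain, ran opposite to its ligand between genotypes. Its probe gave 210 on WT (-), 40.9 on KO (-), 68.8 on WT (+) and 20.0 on KO (+), the last not well above background. It was 5.11-fold lower in KO cells before re-stimulation (-2.35) and at least 3.89-fold lower after it (-1.96, a bound). With normexp these differences were -1.25 and -0.72, and the WT response was -0.73. The normexp offset makes differences that involve signals this dim smaller by construction, so these values do not decide which differences reached 2-fold. A second probe read 143, 25.5, 51.6 and 25.0, all well above background, with differences of -2.48 and -1.22. Re-stimulated WT cells had 2.19-fold less Il6ra than unstimulated ones (-1.13), but by the second probe the difference was -0.98, just short of 2-fold. In KO cells the probes disagreed in sign (-0.73 as a bound, and 0.27).

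The receptor chains of the other ligands varied less. Il27ra gave 2243 on WT (-), 2200 on KO (-), 1136 on WT (+) and 1228 on KO (+), with genotype differences of -0.02 and -0.06. Il11ra1 differed by -0.53 and -0.40 between genotypes. Lifr was near background, with 27.6 to 50.8 by its highest probe and the other 4 probes mostly not well above background, and Osmr and Cntfr stayed at background on every array. Il31ra was at background on the unstimulated arrays and well above it after re-stimulation, at 20.7 on WT (+) and 23.3 on KO (+). Of the 8 chains listed, 5 were measured between genotypes before re-stimulation and 6 in each other comparison. By the probe counted, Il6ra was at least 2-fold lower in the first 3 comparisons, beside 2.82%, 3.85% and 13.5% of all genes. No other chain was shown to differ 2-fold, although Lifr lay at the line on re-stimulation in WT cells (0.99). Il31ra had only lower bounds on re-stimulation, 0.93 in WT and 0.77 in KO cells. These were 1.42 and 1.54 with no filter and no floor. With normexp they were 0.14 and 0.16, but its offset makes differences at this signal smaller by construction. The median differences of the chains were -0.51, -0.18, 0.07 and 0.12.

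Among the kinases and STATs downstream, Jak2 and Stat5a had the largest differences, both with re-stimulation. Jak2, a kinase bound to gp130, gave 910 on WT (-), 1262 on KO (-), 7328 on WT (+) and 10537 on KO (+), with re-stimulation differences of 3.49 in WT and 3.36 in KO cells. Stat5a gave 1359, 1314, 8772 and 11039 in the same order (3.17 and 3.37). Stat3, the main STAT of the pathway, gave 3481 on WT (-), 4984 on KO (-), 4384 on WT (+) and 5183 on KO (+), with genotype differences of 0.52 and 0.07. Of the 8 transducers described, 7 were measured, and none of them differed 2-fold between genotypes at either time. On re-stimulation 2 of 7 were higher in each genotype, beside 13.2% of all genes in WT and 12.4% in KO cells, and 0 were lower, beside 13.5% and 13.0%. Gab1 was not well above background, and the medians were 0.05, 0.07, 0.39 and 0.32.

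Among the feedback inhibitors, Socs3 differed 2-fold between genotypes and the other 5 did not. It gave 6139 on WT (-), 7893 on KO (-), 2650 on WT (+) and 7593 on KO (+), so that the re-stimulated WT array stood below the other 3. Socs3 was 2.54-fold higher in KO than in WT cells after re-stimulation (1.34), against 0.37 before it. Its re-stimulation difference was -0.73 in WT and 0.24 in KO cells, and this difference of responses, 0.98, ranked 219 among 10810 genes. Under scaling to the median the value in KO cells was -0.02.

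The other inhibitors did not follow Socs3. Socs2, which restrains STAT5 signalling, gave 19851 on WT (-), 15439 on KO (-), 4689 on WT (+) and 2797 on KO (+), with re-stimulation differences of -1.60 and -2.16, and it differed by -0.92 between genotypes after re-stimulation. Socs1 gave 41479 on WT (-), 56615 on KO (-), 21919 on WT (+) and 19597 on KO (+). Cish, a STAT5 target and inhibitor, differed by 0.09 and -0.11 between genotypes, and Pias3, an inhibitor of STAT3, by 0.00 and -0.01. On re-stimulation 2 of the 6 inhibitors were at least 2-fold lower in WT cells and 3 of 6 in KO cells, beside 13.5% and 13.0% of all genes. By the probes counted 0 were higher, beside 13.2% and 12.4%. Ptpn2 differed by -0.50 in WT and -0.16 in KO cells by the probe counted, but by 1.34 in both genotypes by its other probe. The medians over the 4 comparisons were 0.05, -0.06, -0.62 and -0.70.

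**Figure D5:**
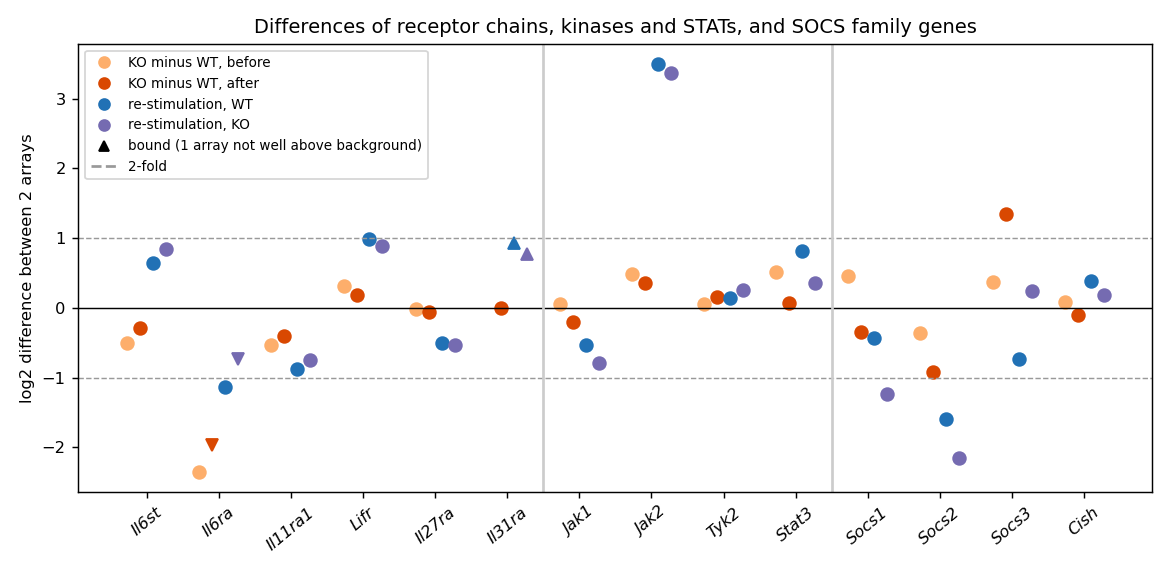
Log2 difference between 2 arrays for receptor chains, kinases and STATs, and SOCS family genes, with triangles for bounds and dashed lines at 2-fold. Il6ra is lower in KO cells at both times (-2.35 and -1.96), Socs3 is higher in KO cells after re-stimulation (1.34), and Jak2 is higher after re-stimulation in both genotypes.

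Genes that STAT3 is known to activate in T cells or elsewhere were described as a list of 14, of which 13 had a probe. Between genotypes none of the 11 measured before re-stimulation differed 2-fold, and after it 2 of 13 were higher in KO cells, Il21 and Batf, and 1 was lower, Fos, beside 5.17% and 3.85% of all genes. Il21, which encodes a follicular helper cytokine, gave 23.4 on WT (+) and 469 on KO (+), a 17.8-fold difference (4.15 on the log2 scale). With normexp it was 2.35, where the offset makes a difference from a signal as dim as 23.4 smaller. Batf, an AP-1 family partner of IRF4, gave 8465 and 22868 on the same arrays (1.26). Fos gave 830 and 356, a difference of -1.39, and Cebpd lay on the 2-fold line at 1.00. By the probes counted, 8 of 13 were higher on re-stimulation in WT cells and 10 of 13 in KO cells. This stands beside 13.2% and 12.4% of all genes, and 0 were lower. Bcl6, the follicular helper regulator, was 20.9-fold and 24.2-fold higher. The medians were 0.21, 0.18, 1.12 and 1.53. Many of these genes also respond to T cell receptor signalling, so the list is not particular to gp130.

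The genes whose 4 values lay closest to those of a ligand were found among the 10809 others with a probe above background throughout, by the root mean square distance between log2 values centred on each gene's own mean. For Osm these were Spsb2 (0.046), Slc36a1 (0.063) and Fermt3 (0.077), and 4 genes lay within 0.1. For Clcf1 they were Zfp36l1 (0.087), Cbr3 (0.116) and Mcoln2 (0.132), and 1 gene lay within 0.1. For Il27 they were Naa15 (0.007), Rpl35 (0.012) and Lhb (0.012), and 679 genes lay within 0.1. The centred values ran from -0.28 to 0.27 for Il27, from -1.20 to 0.84 for Osm and from -1.57 to 1.41 for Clcf1. A gene of small range has more neighbours by this distance, so the counts do not compare how common the profiles are. With 4 arrays this is a description of likeness only.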

How the data were processed

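Total RNA (500 ng per sample) was labelled with Cy3 and hybridised to 4 one-colour Agilent whole mouse genome arrays on 1 slide, read in 1 scan. For each spot the authors deposited a background-subtracted intensity made with Feature Extraction (10.7.3.1 in the file headers), with flags for background, saturation and unevenness. The authors deposited a log2 table too, which is this intensity relative to the 75th percentile of its array, to within 0.01 for no fewer than 41001 of 41174 probes on any array. The array methods are not described in the paper's text beyond this.

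Spots flagged as uneven or as outliers, 107 to 120 of 43379 per array, were left out, and no spot was saturated. From 53.6% to 54.0% of probes passed the background flag. Log2 values were averaged over the spots of a probe, less the 75th percentile of the array. By transcript accession, 27479 probes (66.7%) were named from RefSeq (GRCm38.p6, names only). A gene was read from its probe with the highest mean log2 signal. Genes with at least 1 of 2 arrays well above background were compared, and a dim value was raised to the lowest signal well above background. Samples were grouped by their labels. Members and lists were chosen with earlier results of these data known. Every gene of the ligand, partner, receptor, transducer and inhibitor lists could be named, target and marker genes where past 2-fold or among the 4 highest, and for each ligand well above background throughout the 3 genes closest in profile. Sequences come from RefSeq. The number of arrays limits the precision, and the comparisons were made without a test.

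The alternatives were scaling to the median, quantile normalization, the 75th percentile of probes above background throughout, scaling to Cd3e, normexp (offset 50) with quantile normalization, the authors' table, the mean over probes, stricter or no filters and a 3-fold rule. Scripts were tested on simulated data. Python 3.11.15, numpy 2.4.6, pandas 2.3.3, matplotlib 3.10.9, R 4.3.3 and limma 3.58.1 were used. Some genes of the lists are not reported here and were left out of the list counts and medians. The study's other data types were not analysed here.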

Additional observations from a re-analysis of the deposited data

Results flagged for a closer look

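Of the pathway genes, 3 had differences of opposite sign in the groups compared, each larger than the median SD between probes of a gene in its comparison. The 95th percentile of the SD between probes was 0.409 before and 0.483 after re-stimulation between genotypes. On re-stimulation it was 0.743 in WT and 0.677 in KO cells, so an opposite sign can lie within the spread between probes. The differences between the responses are untested, since each condition had 1 array. Socs1, an inhibitor of JAK kinases, differed by 0.46 before and by -0.34 after re-stimulation. Socs3 had a response of -0.73 in WT and 0.24 in KO cells. Under scaling to the median these were -1.03 and -0.02, of the same sign. Mcl1, a survival gene, had KO minus WT differences of 0.13 (unstimulated) and -0.38 (re-stimulated), with responses of 0.36 in WT and -0.15 in KO cells. By its other probe the responses were 1.13 and 0.37, of the same sign, and the KO minus WT differences 0.60 and -0.16.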

How the results depend on the processing

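Of 167 values of ligand differences under the alternatives, 123 stayed within the spread between probes, 44 moved by more and 0 called ones changed sign. Of 80 counts of ligands 73 stayed within 1.5 times and 7 did not, and of 144 list medians 111 stayed within the spread and 33 did not. For other named genes 964 of 1248 values stayed within it. The count of ligands higher in KO cells before re-stimulation was 2 with no filter and no floor. After re-stimulation it was 1 with normexp, with the mean over probes and with a 3-fold rule, since Osm lay near the line. The count higher on re-stimulation in WT cells was 1 where both arrays had to be well above background, and the count lower in KO cells was 1 under scaling to the median and with the mean over probes. The Il6 bounds ran from 0.19 with normexp to 2.79 with no filter and no floor for KO minus WT before re-stimulation. For the WT response they ran from 1.10 to 5.15 under the same alternatives. The normexp values are made smaller by its offset, since the WT (-) signal was at background.

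With Cd3e as the scale, the all-gene median shifted by 0.14 and 0.10 between genotypes and by 0.30 and 0.26 on re-stimulation in WT and KO cells, and scaling to the array median moved it by -0.06, -0.03, -0.30 and -0.27. The list medians below include that shift and are in the order receptors, transducers, inhibitors and targets. Scaled to Cd3e they were -0.37, 0.18, 0.18 and 0.35 between genotypes before re-stimulation, 0.36, 0.69, -0.32 and 1.42 for the WT response and 0.37, 0.57, -0.44 and 1.79 for the KO response. Scaled to the median they were -0.23, 0.10, -0.91 and 0.82 for the WT response and -0.15, 0.05, -0.96 and 1.27 for the KO response. With quantile normalization the receptors were at -0.04 for the KO response. With normexp the receptors were at -0.18 and the inhibitors at -0.80 for the WT response, and the targets at 1.31 for the KO response. With the mean over probes the transducers were at 0.76 for the WT response, and the inhibitors at -0.30 for the KO response. With both arrays well above background the receptors were at -0.06 after re-stimulation and -0.50 for the WT response, and the targets at 1.34 for the KO response. With no filter the receptors were at -0.31 before re-stimulation, 0.48 for the WT response and 0.74 for the KO response, and the targets at 1.32 for the WT response. Signals near background, those of Il11, Il6ra, Lifr and the unstimulated Il6, limit what can be read from their size. No paired analysis was possible because each condition had 1 array.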
